A study of Mus musculus with 21 samples.

Results

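A set of 93 array probes, out of 45281, was high in undifferentiated mouse stem cells and in adult fibroblasts and low in cardiomyocytes derived from the same stem cells. The members were chosen by their measured values. Signal intensity was quantile normalized over all 21 arrays, put on the log2 scale and averaged per group, and a member had to be detected (detection p under 0.01) on all 9 arrays of undifferentiated cells and fibroblasts. In the iPS line and in the ES line alike, its mean in undifferentiated cells and its mean in fibroblasts had to lie at least 2 above the mean in cardiomyocytes, and undifferentiated cells within 1.5 of fibroblasts. Of 10443 probes detected on the 9 arrays, 539 were 2 or more lower in the cardiomyocytes of both lines than in undifferentiated cells, 155 of these were also 2 or more lower than in fibroblasts, and 93 met the last condition too. Embryoid bodies played no part in the choice.

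Total RNA was hybridised to Illumina bead arrays of 1 colour in 7 groups of 3 arrays. Cardiomyocytes (CM) came from the iPS line aPIG TiB7.4 or from the ES line aPIG D3 at day 16 of differentiation, after puromycin at 8 µg/ml from day 9. Whole embryoid bodies (EB), the cell aggregates in which the lines differentiate, came from the same batches at day 16 without puromycin. Undifferentiated iPS cells (passages 5, 7 and 8) and ES cells (passages 7, 9 and 10) were the starting cultures, kept with the cytokine LIF on a layer of mitomycin-inactivated, neomycin-resistant embryonic mouse fibroblasts. Tail tip fibroblasts at passages 2, 3 and 4 came from F1 mice of 129Sv x c57BL6 aged 8 weeks. Both stem cell lines, and so all groups but the fibroblasts, carry the αPIG selection construct, which lets cells with an active cardiac alpha myosin heavy chain promoter survive puromycin, and each pluripotent type is represented by 1 line. The 18 stem cell samples are independent biological replicates per the study's design text. That text calls the fibroblast arrays technical replicates of a single RNA, which is at odds with the different passages in their labels. The fibroblast arrays were averaged to 1 sample in every fit. In these bulk samples, fewer cells of a type and less RNA per cell cannot be told apart.

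Dividing cells in culture build their shape, adhesion and movement on non-muscle actin filaments, which are bundled, crosslinked and anchored by proteins such as fascin, alpha-actinin and tropomyosin. Cardiomyocytes instead pack muscle isoforms of actin, myosin and tropomyosin into sarcomeres. As they mature they leave the cell cycle and rely mostly on oxidation of fatty acids, while proliferating cells spend more on making amino acids, lipids and nucleotides.

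The labels were checked against marker genes. The probe identifiers had been chosen because Pou5f1, Myh6 and Col1a1, which are among these markers, read as the labels say. The check is therefore not independent of that choice. Of 55 probes for cardiomyocyte genes, 44 were detected on all iPS CM arrays and 43 on all ES CM arrays, against 23 in EB of either line and 5 or fewer in undifferentiated cells and fibroblasts. Of 39 probes for pluripotency genes, 31 were detected on no iPS CM array and 31 on no ES CM array. Their mean log2 intensity lay between 4.40 and 4.46 over the 6 CM arrays, 6.94 to 7.83 in iPS EB, 7.51 to 7.98 in ES EB, 8.37 to 8.54 in iPS cells and 8.36 to 8.43 in ES cells. Markers of fibroblasts (57 probes) averaged 4.82 to 4.86 in iPS CM, 4.89 to 4.92 in ES CM, 5.41 to 5.91 in iPS EB, 5.79 to 5.88 in ES EB, 5.42 to 6.02 in iPS cells, 5.16 to 5.26 in ES cells and 7.67 to 7.82 on the fibroblast arrays. The undifferentiated cultures thus lay above CM in fibroblast markers, with iPS replicate 1 the highest at 6.02, and the part of feeder RNA in the undifferentiated levels below was not tested. Blood cell markers (15 probes) averaged 6.90 to 6.98 in fibroblasts and 4.19 to 4.36 in CM, and their part in the fibroblast levels was not tested either. Detected probes per array numbered 13231 to 17866, and the small number of arrays limits the precision.

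Of the 93 members, 83 have 1 gene symbol in the array annotation and belong to 74 genes, and 10 are not listed with a gene in the annotation used here. In the RefSeq tables (mouse GRCm38.p6), 62 of the 74 genes had a promoter, with 90 windows of 250 bases ending at the base before a transcription start. Promoters of 3 members are printed 5′ to 3′ on the strand of the gene, with matches to the letters named here for each gene in capitals. Other searched letters stay in lower case, such as a CCAAT in the Lima1 window. Fscn1 is shown as the member with the largest margin, and its capitals mark TGACGTCA, the cyclic AMP response element, and TATAAA. Lima1 has the sole member window with a CArG box, the element bound by serum response factor, a known activator of genes for actin and its partners. Tgif1 is shown for a run of 5 matches to GGGCGG, the GC box bound by Sp1, some of which overlap.
Fscn1: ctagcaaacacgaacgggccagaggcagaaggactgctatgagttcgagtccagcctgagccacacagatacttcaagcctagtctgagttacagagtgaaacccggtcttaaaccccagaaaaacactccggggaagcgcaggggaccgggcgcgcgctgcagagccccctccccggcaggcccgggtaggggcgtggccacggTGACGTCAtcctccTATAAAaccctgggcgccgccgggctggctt
Lima1: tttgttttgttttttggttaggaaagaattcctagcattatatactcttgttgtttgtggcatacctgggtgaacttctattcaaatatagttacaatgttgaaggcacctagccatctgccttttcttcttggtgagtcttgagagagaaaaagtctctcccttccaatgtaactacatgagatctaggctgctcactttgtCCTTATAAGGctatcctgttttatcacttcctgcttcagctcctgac
Tgif1: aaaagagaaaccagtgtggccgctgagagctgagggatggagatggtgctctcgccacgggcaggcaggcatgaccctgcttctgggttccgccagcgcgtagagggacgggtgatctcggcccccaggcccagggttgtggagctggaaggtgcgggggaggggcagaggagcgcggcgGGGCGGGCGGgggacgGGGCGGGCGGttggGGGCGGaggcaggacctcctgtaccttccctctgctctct
The windows lie at chr5:142960105-142960354 on the plus strand for Fscn1, chr15:99820150-99820399 on the minus strand for Lima1 and chr17:70851211-70851460 on the minus strand for Tgif1. All motifs were searched on both strands. A CArG box stood in 1.11% of the member windows, 1.37% of 11851 windows of genes with a tested probe and 1.47% of all 32851 windows. GGGCGG stood in 58.9% of member windows, 56.0% of windows of genes with a tested probe and 32.7% of all windows, CACGTG in 10.0%, 8.13% and 6.02%, and CCAAT in 23.3%, 35.0% and 33.8%. For TGANTCA, the AP-1 site, the shares were 4.44%, 4.71% and 6.75%, for GGAATG, bound by TEAD factors, 10.0%, 10.9% and 12.6%, for TATAAA 8.89%, 7.09% and 12.4%, and for TGACGTCA 1.11%, 2.48% and 1.55%. Median GC content was 59.6% in member windows and 59.6% in windows of genes with a tested probe. A match describes the letters in a window and is no evidence of binding.

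The fits below used background-corrected, quantile-normalized log2 intensities, 21047 tested probes, limma's moderated test and a Benjamini-Hochberg adjusted p under 0.05 as the threshold for a call. All 93 members were among the probes tested. The median member stood at 5.01 ± 0.08 in iPS CM, 5.15 ± 0.02 in ES CM, 8.04 ± 0.12 in iPS EB, 7.96 ± 0.02 in ES EB, 8.42 ± 0.07 in iPS cells and 8.37 ± 0.13 in ES cells (log2 intensity, SD, n = 3). It was 8.64 in fibroblasts. The choice fixed the low values in CM, so the following are descriptions. All 93 members were lower in CM in each of 4 comparisons, where 33.6% of tested probes were called lower in iPS CM against iPS cells, 33% in ES CM against ES cells, 21.7% in iPS CM than in fibroblasts and 22.3% in ES CM than in fibroblasts. Their log2 differences ran from -6.39 to -2.20 (iPS CM minus iPS cells), -5.46 to -2.14 (ES CM minus ES cells), -6.65 to -2.10 (iPS CM minus fibroblasts) and -5.52 to -2.05 (ES CM minus fibroblasts). On the 6 CM arrays 29 members were detected nowhere and 44 everywhere, and the other 20 on some arrays only.

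**Figure D1:**
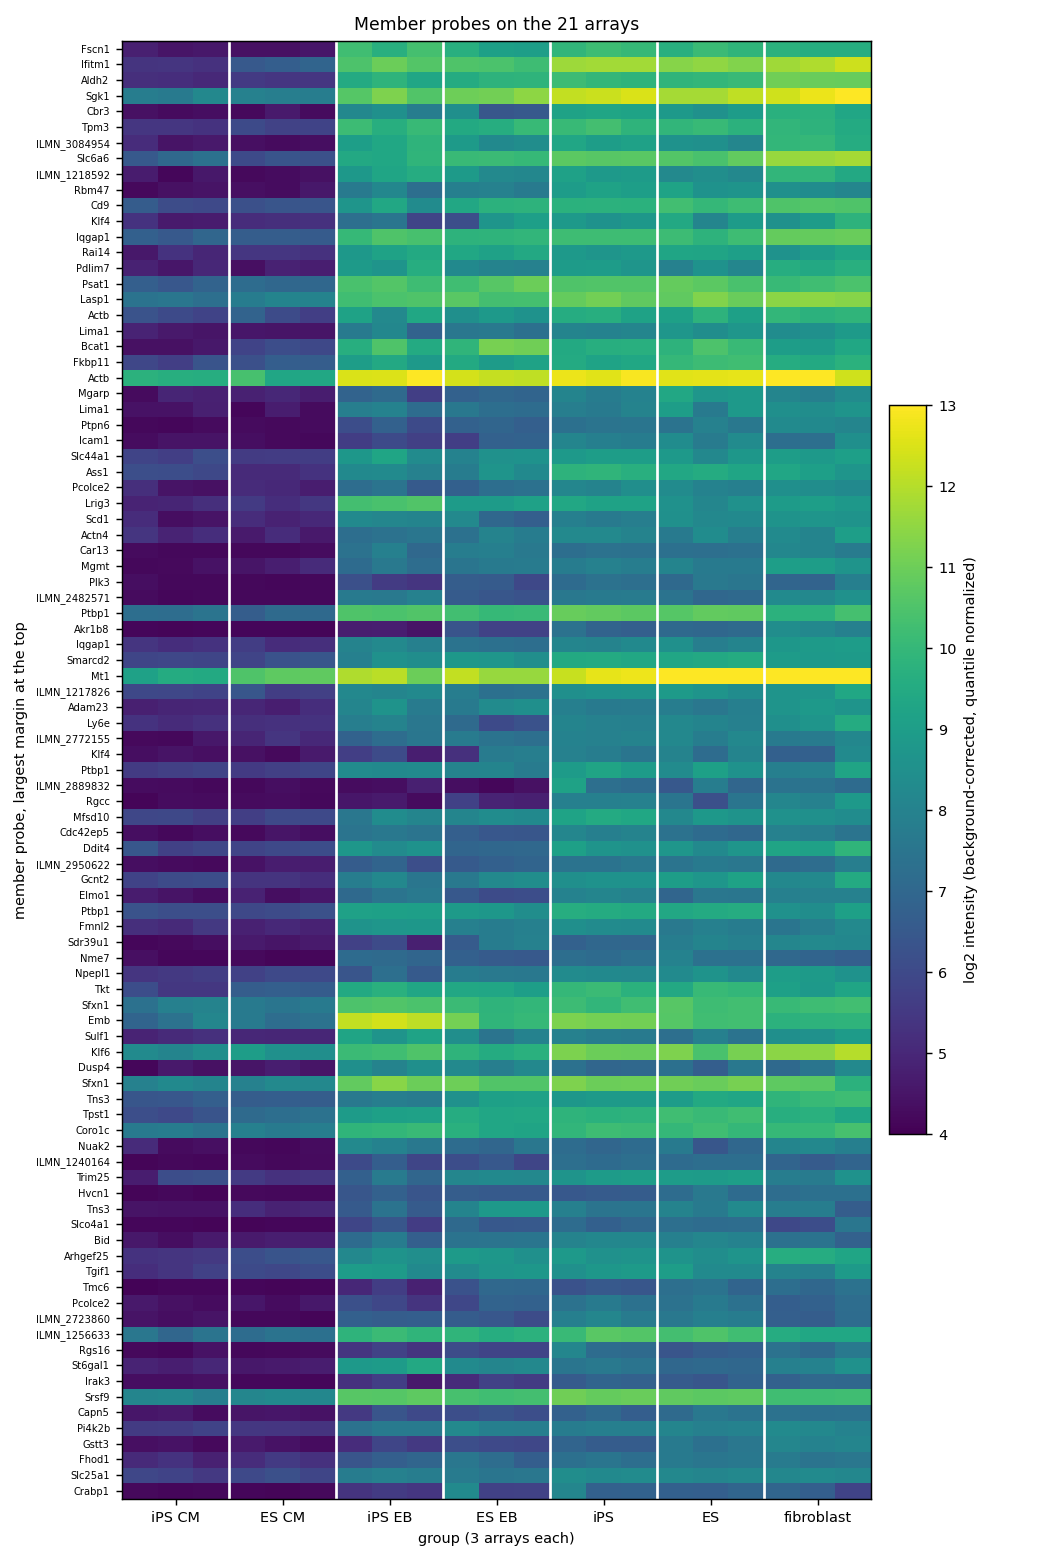
Log2 intensity of the 93 members (rows) on the 21 arrays (columns, grouped as iPS CM, ES CM, iPS EB, ES EB, iPS, ES and fibroblast), as coloured cells. The 6 CM columns lie on average below those of undifferentiated cells and fibroblasts in every row, and the EB columns resemble those of undifferentiated cells for most rows.

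The margin of a member is the smallest of its 4 differences (undifferentiated cells or fibroblasts minus CM, in either line) on the scale of the choice. It ran up to 4.61 for Fscn1. Just inside the threshold stood Crabp1 (2.00), Slc25a1 (2.00), Fhod1 (2.00) and Gstt3 (2.01), and just outside a further Tns3 probe (ILMN_1241258, 1.998), ILMN_1222674 (1.99), Septin9 (1.98) and Ece1 (1.98). A further 84 probes met the other conditions with a margin between 1.5 and 2.

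Many of the named members work on actin filaments or in their regulation. This and the following groups of roles were put together after the members' names were known, cover 62 of the 74 genes and carry no claim of enrichment. The actin group held 20 probes of 16 genes, with a median difference of -3.33 (iPS CM minus iPS cells), -3.03 (ES CM minus ES cells), -3.71 (iPS CM minus fibroblasts) and -3.51 (ES CM minus fibroblasts). Fscn1, which encodes fascin, the bundler of actin filaments in filopodia, stood at 4.79, 4.52 and 4.58 in iPS CM and 4.41, 4.40 and 4.54 in ES CM. In EB it stood at 10.25, 9.69 and 10.36 in iPS EB and 9.68, 9.11 and 9.05 in ES EB. Its intensity was 9.91, 10.22 and 10.01 in iPS cells, 9.67, 10.14 and 9.91 in ES cells and 9.79, 9.59 and 9.62 in fibroblasts. Every CM array read near background and no other array below 9.05. Fscn1 was detected on no CM array, so that iPS CM lay at least 39.9-fold lower than iPS cells and ES CM at least 34.8-fold lower than ES cells. Such a bound sets the mean of the bright group against the lowest detected signal on the arrays of the dim group, or the probe's own value where that is higher.

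Tpm3, a tropomyosin gene with non-muscle and slow muscle products, had 5.42, 5.43 and 5.31 in iPS CM and 6.04, 5.78 and 5.82 in ES CM. Its EB values were 10.16, 9.63 and 10.06 in iPS EB and 9.45, 9.60 and 10.07 in ES EB. The probe gave 10.06, 10.30 and 9.86 in iPS cells, 9.91, 10.07 and 9.78 in ES cells and 9.92, 9.83 and 9.50 in fibroblasts. All CM values were at least 3 below every other array. Iqgap1, a scaffold that links Rac and Cdc42 to actin, was represented by 2 members. The brighter one (ILMN_2654495) had 6.76, 6.53 and 6.99 in iPS CM and 6.65, 6.66 and 6.59 in ES CM, against 10.22, 10.19 and 10.21 in iPS cells and 10.18, 9.82 and 10.20 in ES cells. Beta-actin itself (Actb) was there with 2 probes, and ILMN_2698799 read 9.79, 9.65 and 9.60 in iPS CM and 10.40, 9.34 and 9.39 in ES CM, against 12.74, 12.61 and 12.92 in iPS cells and 12.60, 12.64 and 12.66 in ES cells. On this probe beta-actin was 8.42-fold lower in CM than in undifferentiated cells of the iPS line and 7.61-fold lower in the ES line, yet it stayed detected on all 6 CM arrays. Lima1, which crosslinks actin filaments and whose promoter is printed above, read 4.89, 4.63 and 4.49 in iPS CM and 4.53, 4.50 and 4.52 in ES CM with ILMN_2669189, against 8.05, 8.00 and 8.08 in iPS cells and 8.72, 8.40 and 8.73 in ES cells. The other genes of the group were Actn4 (a non-muscle alpha-actinin), the formins Fmnl2 and Fhod1, Coro1c (a coronin), Lasp1, Rai14, Pdlim7, Tns3 (a tensin of focal adhesions), Cdc42ep5 (a Cdc42 effector), Elmo1 (a partner of Dock proteins in activating Rac) and Arhgef25.

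Metabolic and detoxifying enzymes made up 10 members, with medians of -3.79 (iPS CM minus iPS cells) and -3.48 (ES CM minus ES cells). Aldh2, the mitochondrial aldehyde dehydrogenase, had 5.21, 5.16 and 5.04 in iPS CM and 5.53, 5.42 and 5.44 in ES CM. EB had 9.49, 9.85 and 9.34 in iPS EB and 9.53, 9.80 and 9.84 in ES EB. It had 10.18, 9.97 and 9.86 in iPS cells, 9.89, 9.95 and 10.10 in ES cells and 11.04, 10.94 and 10.92 in fibroblasts. The fibroblast arrays were the highest of all and the CM arrays the lowest, without overlap with the other groups. Aldh2 was 29.2-fold lower in CM than in undifferentiated cells of the iPS line and 22.9-fold lower in the ES line. Cbr3, a carbonyl reductase, read 4.41, 4.27 and 4.34 in iPS CM and 4.23, 4.66 and 4.26 in ES CM. In EB it read 8.18, 8.53 and 7.82 in iPS EB and 8.47, 6.42 and 6.50 in ES EB. Levels were 9.20, 9.31 and 9.22 in iPS cells, 8.85, 8.54 and 8.97 in ES cells and 9.71, 9.78 and 9.33 in fibroblasts. ES EB replicate 1 lay about 2 above the other 2 ES EB arrays, and no CM array detected the probe. Psat1, of serine synthesis, read 6.72, 6.45 and 6.86 in iPS CM and 7.17, 7.00 and 7.02 in ES CM, against 10.51, 10.57 and 10.57 in iPS cells and 10.88, 10.72 and 10.43 in ES cells. The group also held Bcat1 (transamination of branched-chain amino acids), Ass1 (arginine synthesis), Tkt (pentose phosphate pathway), Scd1 (fatty acid desaturation), Car13 (a carbonic anhydrase), Akr1b8 (an aldo-keto reductase) and Gstt3 (a glutathione transferase).

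Transporters and channels had 7 members of 6 genes. Slc6a6, the taurine transporter, had 6.52, 7.05 and 7.37 in iPS CM and 6.03, 6.33 and 6.22 in ES CM. EB values were 9.43, 9.37 and 9.89 in iPS EB and 10.11, 10.13 and 10.04 in ES EB. Its intensity was 10.72, 10.65 and 10.70 in iPS cells, 10.59, 10.43 and 10.84 in ES cells and 11.61, 11.65 and 11.77 in fibroblasts. CM kept a clear signal on all 6 arrays, higher in iPS CM than in ES CM. The 4 glycan and sulfation enzymes (Gcnt2, St6gal1, Sulf1 and Tpst1) had the smallest median difference from undifferentiated cells, -2.68 in iPS CM and -2.75 in ES CM. Among transporters Slc44a1 carries choline, Sfxn1 carries serine into mitochondria, Slc25a1 is the mitochondrial citrate carrier and Hvcn1 is a proton channel.

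RNA-binding proteins were represented by Ptbp1, Srsf9 and Rbm47. Rbm47, an RNA-binding protein of editing and splicing, had 4.22, 4.39 and 4.48 in iPS CM and 4.36, 4.28 and 4.59 in ES CM. In EB the values were 7.69, 8.17 and 7.25 in iPS EB and 7.87, 7.95 and 7.68 in ES EB. The probe gave 8.96, 9.20 and 9.05 in iPS cells, 9.22, 8.60 and 8.67 in ES cells and 8.53, 8.39 and 8.13 in fibroblasts. CM arrays sat at background, and iPS CM lay at least 20.3-fold lower than iPS cells and ES CM at least 16.5-fold lower than ES cells. Ptbp1, the polypyrimidine tract-binding repressor of splicing, had 3 members. On ILMN_1224003 it read 7.26, 7.21 and 7.45 in iPS CM and 6.67, 7.11 and 7.09 in ES CM, against 10.89, 10.84 and 10.75 in iPS cells, 10.62, 10.84 and 10.81 in ES cells and 9.79, 9.80 and 10.34 in fibroblasts. Its 3 members were 10.1- to 11.5-fold lower in CM than in undifferentiated cells of the iPS line and 7.92- to 14.0-fold lower in the ES line.

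Transcription and chromatin factors were Klf4 with 2 members, Klf6, Tgif1 (a repressor of TGF-beta responses) and Smarcd2 (a subunit of the SWI/SNF remodelling complex). Klf4, a transcription factor used for reprogramming to pluripotency, had 5.30, 4.64 and 4.69 in iPS CM and 5.15, 5.20 and 5.29 in ES CM. EB had 7.29, 7.50 and 5.84 in iPS EB and 6.18, 8.70 and 9.09 in ES EB. It had 8.88, 8.59 and 8.76 in iPS cells, 9.44, 8.11 and 8.95 in ES cells and 8.54, 8.96 and 9.82 in fibroblasts. EB arrays were spread over more than 3 log2 units, with iPS EB replicate 3 and ES EB replicate 1 the lowest. These 2 arrays also had the lowest mean of pluripotency markers in their group, 6.94 in iPS EB replicate 3 and 7.51 in ES EB replicate 1. That mean includes the Klf4 probes themselves, so it is no separate reading. The part of undifferentiated cells in the EB values was not tested. The second Klf4 member (ILMN_1241903) repeated the order, with 5.67, 6.05 and 4.76 in iPS EB and 5.24, 7.74 and 7.85 in ES EB.

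Signalling and stress-response genes gave 13 members and cell surface proteins 6. Sgk1, a kinase induced by serum and glucocorticoids, read 7.82, 7.72 and 8.22 in iPS CM and 7.97, 7.85 and 7.83 in ES CM. EB read 10.63, 11.28 and 10.57 in iPS EB and 11.02, 11.08 and 11.46 in ES EB. Levels were 12.19, 12.29 and 12.50 in iPS cells, 11.78, 11.79 and 12.15 in ES cells and 12.36, 12.74 and 13.11 in fibroblasts. Sgk1 was detected on every CM array, its CM means lay 4 or more below those of undifferentiated cells, and EB lay between. Ifitm1, an interferon-induced membrane protein, read 5.37, 5.37 and 5.27 in iPS CM and 6.52, 6.70 and 6.89 in ES CM. The EB values were 10.48, 10.98 and 10.57 in iPS EB and 10.52, 10.47 and 10.19 in ES EB. Its intensity was 11.70, 11.73 and 11.73 in iPS cells, 11.35, 11.49 and 11.28 in ES cells and 11.73, 11.92 and 12.32 in fibroblasts. Ifitm1 was 83.6-fold lower in CM than in undifferentiated cells of the iPS line and 25.5-fold lower in the ES line. Cd9, a tetraspanin of the plasma membrane, had 6.62, 6.09 and 5.99 in iPS CM and 6.21, 6.39 and 6.38 in ES CM. EB had 8.68, 9.40 and 8.34 in iPS EB and 9.39, 9.79 and 9.84 in ES EB. The probe gave 9.75, 9.78 and 9.76 in iPS cells, 10.28, 9.98 and 10.21 in ES cells and 10.52, 10.58 and 10.53 in fibroblasts. None of the 6 CM values reached the lowest EB value of 8.34. The unnamed probes ILMN_3084954 and ILMN_1218592 were also among the 12 members with the largest margin. ILMN_3084954 read 5.15, 4.48 and 4.63 in iPS CM and 4.38, 4.26 and 4.35 in ES CM, against 9.34, 9.01 and 9.15 in iPS cells and 8.58, 8.51 and 8.12 in ES cells. ILMN_1218592 read 4.68, 4.16 and 4.60 in iPS CM and 4.24, 4.31 and 4.42 in ES CM, against 9.14, 8.87 and 8.93 in iPS cells and 8.25, 8.44 and 8.20 in ES cells.

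**Figure D2:**
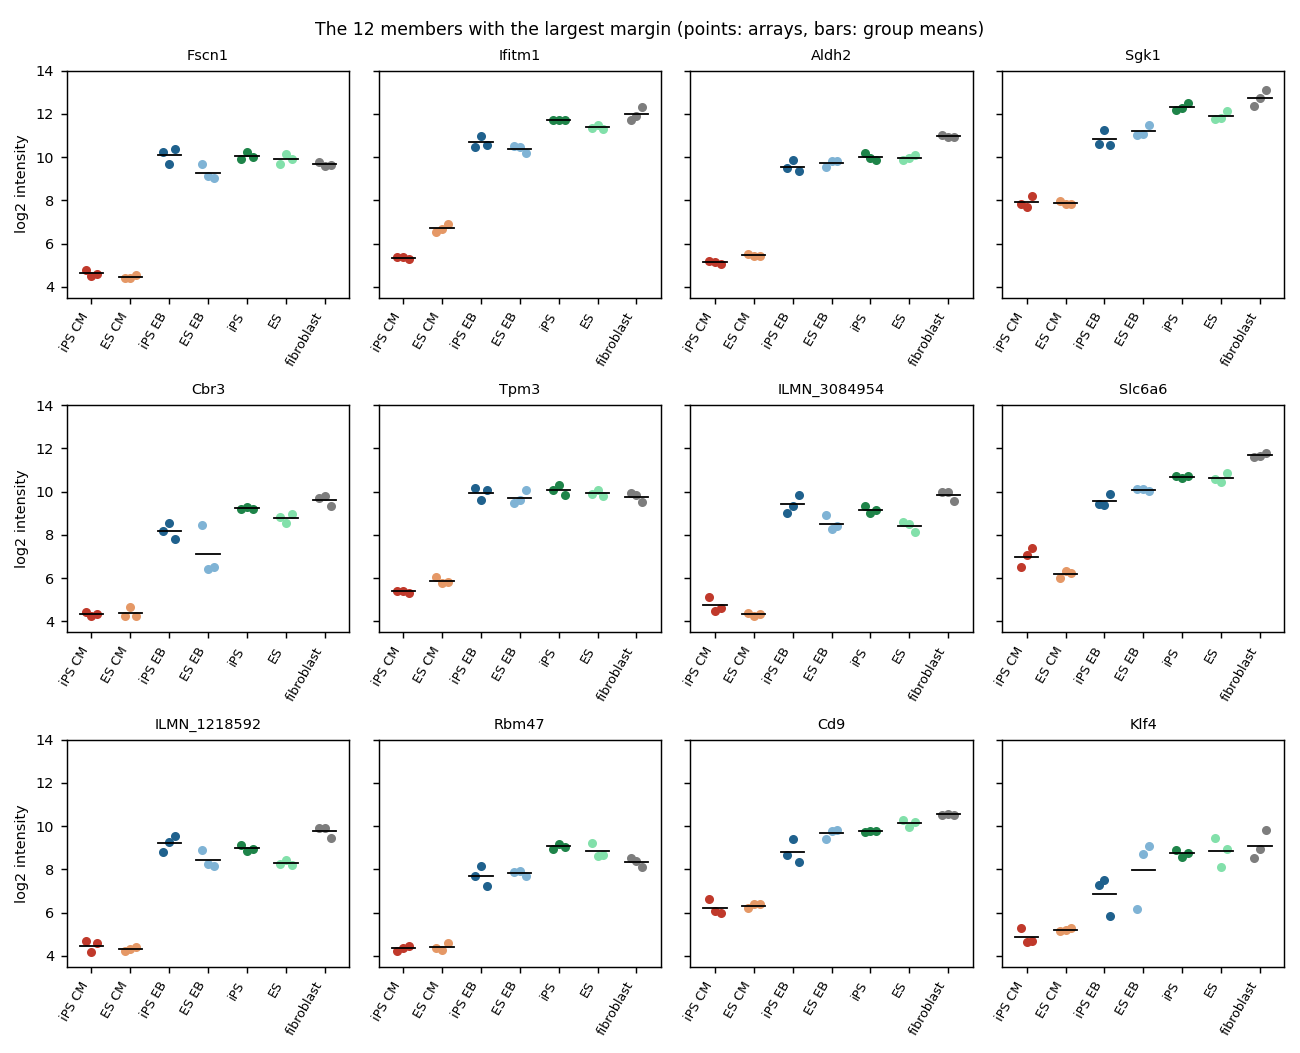
Log2 intensity (vertical axis) of the 12 members with the largest margin, 1 panel each, in the 7 groups along the horizontal axis from iPS CM to fibroblast. Points are arrays and bars are group means. CM points lie below all others in every panel, and Klf4 and Cbr3 show EB arrays far apart within a group.

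A probe reads part of a transcript, so the other probes of the same genes were examined. Of the 74 genes, 34 had further tested probes, 60 in all. In 47 of these probes CM of both lines also lay below undifferentiated cells and fibroblasts, by any margin. Some of these margins were very small, such as 0.05 for Arhgef25 on ILMN_1250057 and 0.06 for Ifitm1 on ILMN_2814484. The share of all tested probes that lay so was not counted. In the other 13 probes at least 1 of the 4 differences went the other way. Actb had 2 such probes, ILMN_2588055 with means of 7.86 in iPS CM and 7.90 in ES CM against 6.22 in iPS cells and 6.70 in ES cells, and ILMN_2846865 with 7.99 in iPS CM and 8.15 in ES CM against 6.43 in iPS cells and 7.00 in ES cells. Tpm3 likewise read higher in CM on ILMN_2435584, with 7.62 in iPS CM and 7.52 in ES CM against 5.33 in iPS cells and 5.46 in ES cells. Actin and tropomyosin belong to families of near-identical genes with several isoforms, and which transcript each probe reads was not tested. Nme7, a member with ILMN_1246498, was strongly higher in CM on ILMN_1259075, with 13.4 in iPS CM and 13.2 in ES CM against 9.40 in iPS cells and 9.74 in ES cells. Slc44a1 gave 7.50 in iPS CM and 7.25 in ES CM on ILMN_1241827 against 5.25 in iPS cells and 4.50 in ES cells. Ifitm1 was low in fibroblasts on 2 other tested probes, with 4.90 on ILMN_1214071 (detected on all 3 fibroblast arrays) and 4.16 on ILMN_2814484 (detected on none of them), while iPS cells stood at 12.2 and 7.61 there. The gene-level statement is therefore uncertain for Actb, Tpm3, Nme7, Slc44a1 and Ifitm1.

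Lists of pathway genes, chosen with earlier results of these data known, were then compared with the members. None of the 67 tested probes of DNA replication genes was a member, nor any of 87 of mitosis and cytokinesis or 58 of cyclins and their kinases. There was also none among 44 probes of nucleotide synthesis, 42 of DNA repair, 38 of chromatin and DNA methylation maintenance and 46 of ribosome biogenesis. Sterol synthesis and glycolysis, with 24 tested probes each, had none either. Members were only 93 of 21047 tested probes, so lists of these sizes would hold few or none in any case. DNA replication probes were called lower in CM than in undifferentiated cells for 62 of 67 in the iPS line and 63 in the ES line. Against fibroblasts, however, 4 were called lower in iPS CM and 18 in ES CM. In mitosis and cytokinesis, 80 of 87 were lower in CM than in undifferentiated cells of the iPS line and 78 in the ES line, while relative to fibroblasts 3 were lower in iPS CM and 40 in ES CM. A drop of 2 or more from undifferentiated cells in both lines was seen in 37.3% of replication probes and 39.1% of mitosis probes, and a drop of 2 or more from fibroblasts in none, while over all tested probes the shares were 3.44% and 4.72%. For nucleotide synthesis, DNA repair and ribosome biogenesis the shares 2 or more below undifferentiated cells were 27.3%, 16.7% and 28.3%, with none that far below fibroblasts. Chromatin and DNA methylation maintenance had 21.1% below undifferentiated cells and none that far below fibroblasts. Cyclins and their kinases had 10.3% below undifferentiated cells, 10.3% below fibroblasts and 1.72% below both, and sterol synthesis and glycolysis had none in either comparison.

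The list of the non-muscle cytoskeleton and membrane scaffold is described on the same contrasts as the choice used, so its counts are no independent evidence. Of 65 tested probes, 42 were lower in CM than in undifferentiated cells of the iPS line, 38 in the ES line, 51 in iPS CM than in fibroblasts and 49 in ES CM than in fibroblasts. Among them 12 (18.5%) were 2 or more below both cell types in both lines, against 0.736% of all tested probes. Some marker lists also lay above that background, with 13.9% of pluripotency, 12.5% of blood cell (8 tested probes) and 10.6% of fibroblast marker probes. The other marker lists had none. Members among the 12 cytoskeleton probes were Tpm3, Actn4 and Cd9. The remaining 9 probes, which differed by over 1.5 between fibroblasts and undifferentiated cells of at least 1 line, belonged to Lgals3, S100a6, S100a10, Tagln2, Capg, Myh9, Tpm4 and, with 2 probes, Anxa3. Outside this list, Psat1 was a member among 27 probes for serine, one-carbon and amino acid supply, and Klf4 gave 2 members among the pluripotency markers.

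**Figure D3:**
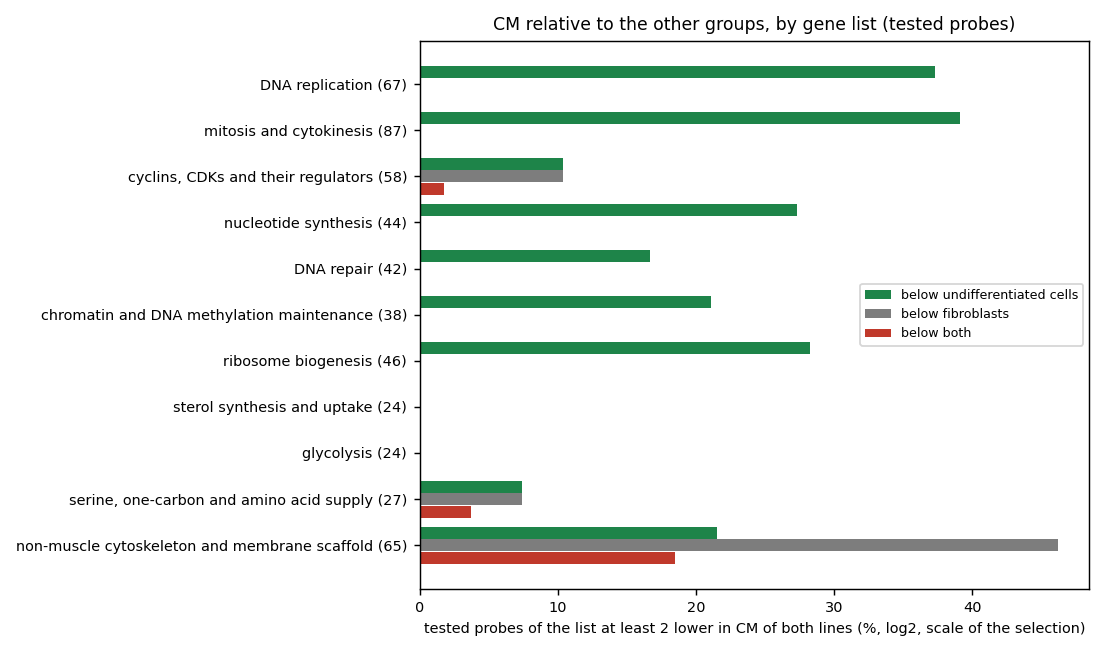
Share of the tested probes of each pathway gene list that lay 2 or more log2 units lower in CM of both lines than in undifferentiated cells, than in fibroblasts, and than in both. Marker lists are not drawn. The replication and mitosis lists have bars against undifferentiated cells only, whereas the non-muscle cytoskeleton list reaches 18.5% against both.

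Embryoid bodies, which the choice did not use, kept most of the members' signal. Of the 93 members, 90 were detected on all 6 EB arrays. Members had been chosen as detected in undifferentiated cells and fibroblasts, and the share of all such probes detected on every EB array was not counted. Members were lower in iPS CM than in iPS EB in 90 cases and in ES CM than in ES EB in 92 cases, against 29.6% and 31% of all tested probes. This is a description, as the low CM arm was chosen. Another 550 probes were at least 2 lower in CM than in undifferentiated cells of both lines but less than 2 lower than in fibroblasts. Of these, 98.9% were called lower in iPS CM than in iPS EB and 99.8% in ES CM than in ES EB. The drop from EB to CM was thus not particular to the members. Groups did not overlap for 91 members in the iPS line and 92 in the ES line, lower in CM each time, where 34.2% and 36.2% of tested probes were so. With the CM mean of a line set to 0% and its undifferentiated mean to 100%, the median member stood at 80.2, 87.6 and 81.8% on the iPS EB arrays and at 80.9, 79.9 and 76.8% on the ES EB arrays. The means were 83.2 ± 3.93% in iPS EB and 79.2 ± 2.15% in ES EB (SD, n = 3 each). In both lines 73 members stood above 50%, 40 above 75% and 12 above 100%. Pluripotency markers averaged 6.94 to 7.98 over the EB arrays and cardiomyocyte markers 5.34 to 5.93, and the part of cell composition in these positions was not tested.

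Most members were nevertheless somewhat lower in EB than in undifferentiated cells. In the iPS line 53 members were lower and 7 higher in EB than in iPS cells, where 18.7% of tested probes were called lower and 18.8% higher. In the ES line 55 were lower and 4 higher than in ES cells, where 16.7% were called lower and 16.6% higher. The undifferentiated arm was chosen high, which by itself favours lower values in EB. Without overlap between the groups, 56 members were lower and 9 higher in iPS EB (25.1% and 25% of tested probes), and 58 were lower and 4 higher in ES EB (19.7% and 21.4%). Both lines gave the same call for 40 lower and 3 higher members, against 9.95% and 10.2% of tested probes, and no member was called in opposite directions. Median differences were -0.52 (iPS EB minus iPS cells) and -0.64 (ES EB minus ES cells), small beside the differences of about 3 between CM and undifferentiated cells.

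The count of lower members rested on the normalization. With arrays scaled to a common median instead of quantile normalized, the median of all tested probes was 0.25 higher in EB than in undifferentiated cells of either line, and the members split into 16 lower and 6 higher in iPS EB and into 10 lower and 7 higher in ES EB. Of all tested probes, 3.17% were then called lower and 22.3% higher in iPS EB, and 1.46% lower and 19.3% higher in ES EB. Relative to the median of all tested probes, 67 members were lower in iPS EB and 72 in ES EB under that scaling, against 73 and 78 under quantile normalization. The 550 probes that passed only the condition against undifferentiated cells were called lower in EB in 64.4% of cases in the iPS line and 52.9% in the ES line, beside 57% and 59.1% of the members. Of the 754 probes low in CM against fibroblasts only, 24.4% were lower in iPS EB and 11.5% in ES EB. The lower EB values were thus shared with the probes that passed only the condition against undifferentiated cells.

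A pair of members stood far below undifferentiated cells in EB already. ILMN_2889832, which has no gene in the annotation used here, read 4.28, 4.32 and 4.80 in iPS EB and 4.32, 4.15 and 4.40 in ES EB, against 9.19, 7.27 and 7.15 in iPS cells and 6.49, 7.82 and 6.95 in ES cells. It was detected on 1 of the 6 EB arrays, and its EB position was 5.94% in the iPS line and 1.53% in the ES line. iPS replicate 1, the array with the highest fibroblast markers of its group, was its highest undifferentiated value. The differences were -3.40 ± 0.39, adjusted p = 6.1e-06 (iPS EB minus iPS cells) and -2.80 ± 0.39, adjusted p = 4.4e-05 (ES EB minus ES cells, log2 ± SE, limma). Rgcc, a regulator of the cell cycle, read 4.55, 4.66 and 4.25 in iPS EB against 7.94, 7.91 and 7.94 in iPS cells, and 5.73, 4.88 and 4.80 in ES EB against 7.50, 6.18 and 7.51 in ES cells. EB lay below undifferentiated cells without overlap in both lines, by -3.44 ± 0.28, adjusted p = 1.7e-07 in iPS EB and by -1.93 ± 0.28, adjusted p = 5.8e-05 in ES EB (limma). These 2 probes were the only members under 50% in both lines.

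Icam1, the adhesion receptor for leukocyte integrins, had 5.64, 6.02 and 5.69 in iPS EB against 8.10, 7.87 and 7.79 in iPS cells, and 5.68, 6.81 and 6.83 in ES EB against 8.39, 7.75 and 8.33 in ES cells. It fell in both lines, with log2 differences of -2.14 ± 0.24, adjusted p = 4.4e-06 in iPS EB and -1.72 ± 0.24, adjusted p = 4e-05 in ES EB (limma). Akr1b8 read 4.71, 4.74 and 4.46 in iPS EB against 7.39, 6.88 and 6.73 in iPS cells, and 6.34, 5.77 and 5.76 in ES EB against 7.08, 7.00 and 7.09 in ES cells. In the iPS line its EB values came close to background, with a difference of -2.36 ± 0.16, adjusted p = 2.9e-08, and in ES EB it was -1.10 ± 0.16, adjusted p = 7.5e-05 (limma). With arrays scaled to a common median the ES EB difference of Akr1b8 was -0.48 (adjusted p = 0.24). Mgarp, a mitochondrial protein, had 6.88, 7.13 and 5.66 in iPS EB against 8.04, 7.77 and 8.00 in iPS cells, and 6.80, 7.01 and 6.90 in ES EB against 9.39, 8.72 and 8.84 in ES cells. Ass1, Gstt3 and Irak3, the last an inhibitor of Toll-like receptor signalling, fell as well, by 1.61, 1.22 and 1.58 on the log2 scale in iPS EB and by 1.18, 1.51 and 1.14 in ES EB (limma, adjusted p from 3.3e-06 to 0.00052). Under the median scaling Mgarp and Gstt3 missed the threshold in iPS EB and Irak3 in ES EB.

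The 3 members called higher in EB of both lines were St6gal1, Dusp4 and Lrig3. St6gal1, a sialyltransferase, read 8.87, 8.93 and 9.43 in iPS EB against 7.51, 7.64 and 7.45 in iPS cells, and 8.29, 8.10 and 8.22 in ES EB against 6.99, 7.09 and 7.00 in ES cells. Every EB array was above every undifferentiated one, by 1.54 ± 0.13, adjusted p = 2.5e-07 in iPS EB and 1.18 ± 0.13, adjusted p = 4.1e-06 in ES EB (limma). It rose in EB and was low in CM of the same day, at 4.91, 4.76 and 5.01 in iPS CM and 4.59, 4.66 and 4.72 in ES CM. Dusp4, a phosphatase that acts on MAP kinases, had 8.47, 8.02 and 8.48 in iPS EB against 7.34, 6.97 and 7.05 in iPS cells, and 8.25, 7.85 and 8.19 in ES EB against 7.31, 6.70 and 7.59 in ES cells. Its differences were 1.20 ± 0.20, adjusted p = 0.00019 in iPS EB and 0.90 ± 0.20, adjusted p = 0.0024 in ES EB (limma). On 2 other tested Dusp4 probes the iPS line did not show this difference, with means of 8.17 in iPS EB against 8.06 in iPS cells on ILMN_2689731 and 5.94 against 6.00 on ILMN_2870965, so a rise of the gene is uncertain. Lrig3, a membrane protein with leucine-rich repeats, rose by 1.17 ± 0.14, adjusted p = 8.6e-06 in iPS EB and by 0.59 ± 0.14, adjusted p = 0.0038 in ES EB (limma).

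**Figure D4:**
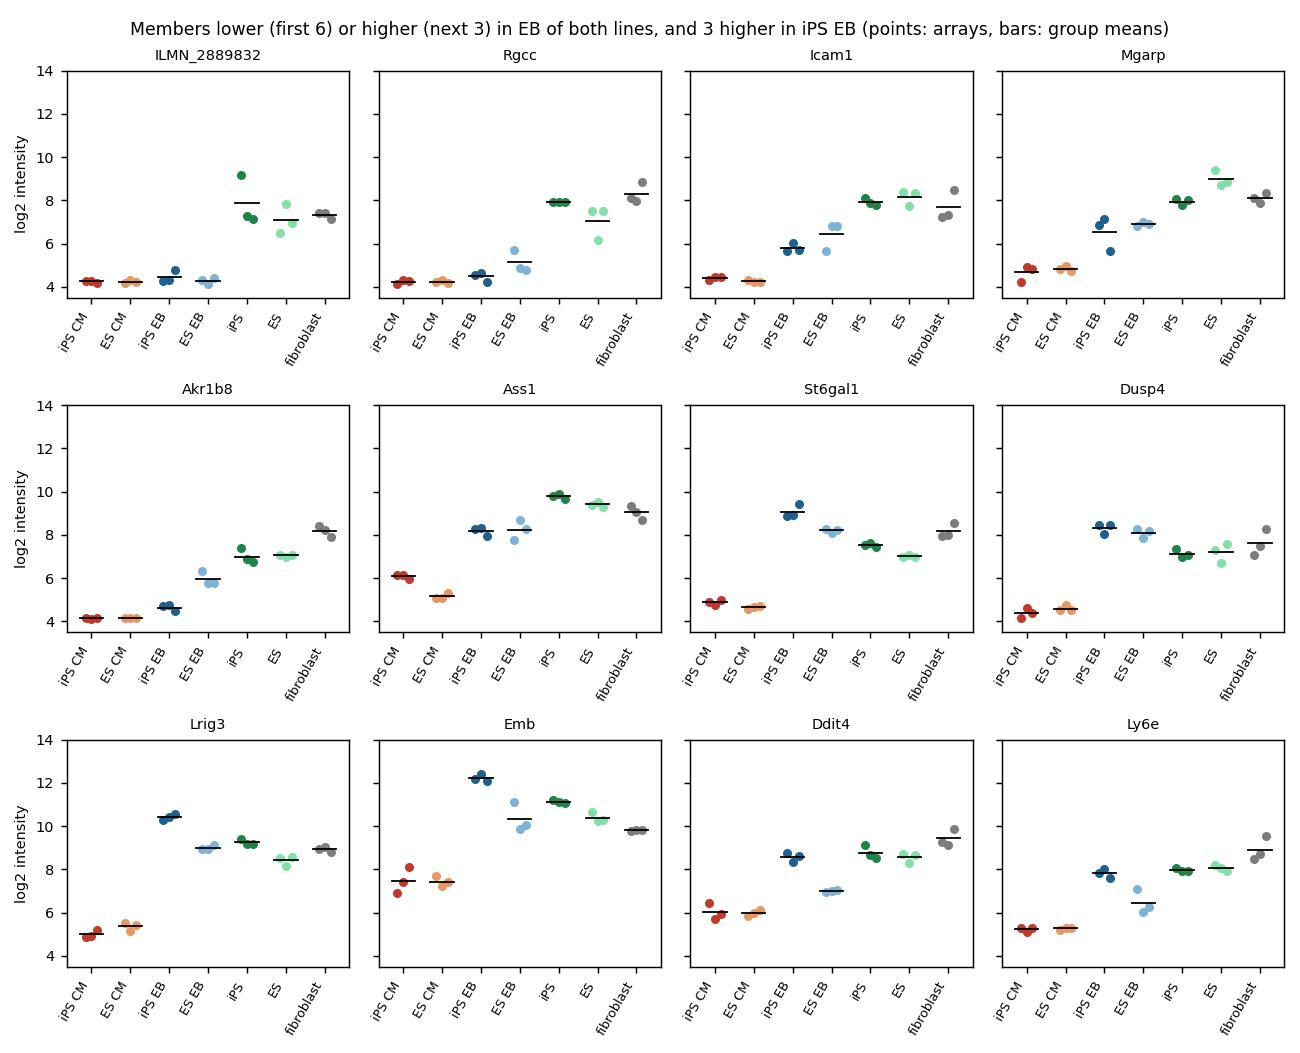
Log2 intensity (vertical axis) by group (horizontal axis, iPS CM to fibroblast) of 12 members named for their EB values, 1 panel each, with points for arrays and bars for group means. ILMN_2889832 and Rgcc have EB points near those of CM, while St6gal1, Dusp4 and Lrig3 have EB points above undifferentiated cells.

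By role, the actin group had 7 of 20 probes lower and 1 higher in iPS EB than in iPS cells, and 8 lower and none higher in ES EB than in ES cells. The medians of its differences were -0.22 in iPS EB and -0.42 in ES EB. Signalling and stress-response members gave 9 of 13 lower and 3 higher in iPS EB, 10 lower and 2 higher in ES EB, and medians of -1.11 and -0.80. All 5 RNA-binding probes were lower in ES EB and 4 in iPS EB. These counts stand beside 57% lower in iPS EB and 59.1% lower in ES EB over all members, and differences between roles were not tested.

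**Figure D5:**
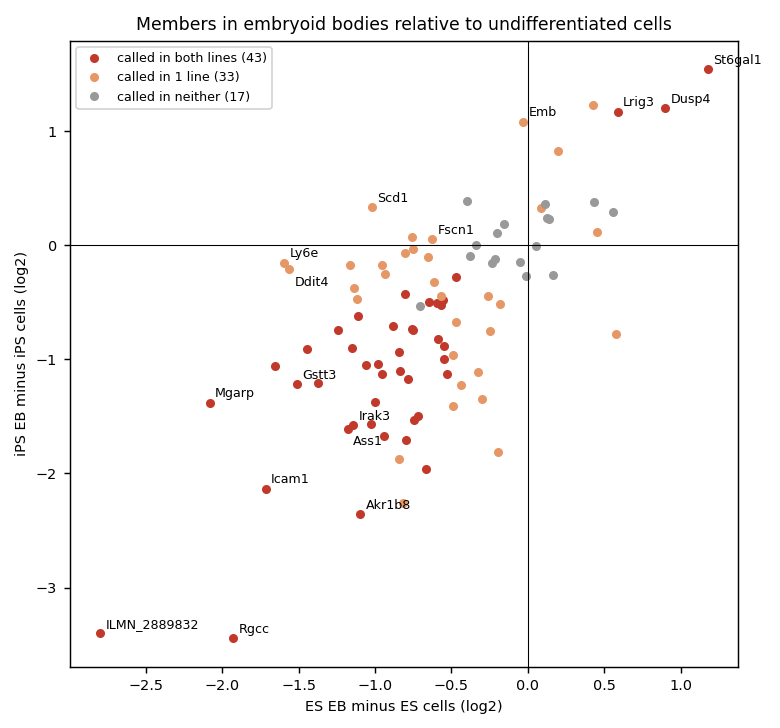
Log2 difference ES EB minus ES cells (one axis) against iPS EB minus iPS cells (other axis) for the 93 members, 1 point each, with named members labelled. Most points lie below 0 on both axes, and St6gal1, Dusp4 and Lrig3 lie above 0 on both.

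The lines were next compared at the same stage. The choice did not use EB, but it held the undifferentiated means of both lines near one fibroblast mean and the CM means of both lines low, which limits how far the lines can differ at those 2 stages. Each line is 1 cell line, so calls concern these lines. In iPS EB 26 members were higher and 18 lower than in ES EB, where 12.8% and 12.9% of tested probes were called. Without overlap, 28 were higher and 15 lower (19.7% and 18% of tested probes). With arrays scaled to a common median, 12 members were called higher and 5 lower, beside 6.5% and 3.77% of tested probes. Emb, a glycoprotein that escorts monocarboxylate transporters, read 12.17, 12.39 and 12.10 in iPS EB against 11.13, 9.89 and 10.04 in ES EB, a difference of 1.86 ± 0.29, adjusted p = 0.00016 (limma). Ddit4, a stress-induced inhibitor of mTOR signalling, had 8.77, 8.33 and 8.60 in iPS EB against 6.94, 7.02 and 7.05 in ES EB (1.57 ± 0.19, adjusted p = 1.3e-05, limma). Both genes were higher in every iPS EB array than in any ES EB array. Lrig3 read 10.31, 10.41 and 10.56 in iPS EB against 8.93, 8.93 and 9.14 in ES EB (1.42 ± 0.14, adjusted p = 1.8e-06, limma). Ly6e, a lipid-anchored surface protein, ILMN_2482571 and Elmo1 were higher by 1.35, 1.34 and 1.17 (limma, adjusted p from 1e-06 to 0.00024).

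Lower in iPS EB were a dehydrogenase-like gene, 2 Tns3 probes and others. Sdr39u1 read 5.73, 6.06 and 4.79 in iPS EB against 6.59, 7.79 and 7.95 in ES EB, a difference of -1.92 ± 0.30, adjusted p = 0.00015 (limma). Tns3 on ILMN_2491469 read 6.56, 7.42 and 6.57 in iPS EB against 8.05, 8.84 and 8.86 in ES EB (-1.74 ± 0.24, adjusted p = 5.5e-05, limma). Its second member ILMN_1247133 went the same way, with 7.63, 7.84 and 7.75 in iPS EB against 8.54, 9.10 and 9.15 in ES EB (-1.19 ± 0.16, adjusted p = 3.2e-05, limma). Tmc6, a transmembrane channel-like protein, had 5.02, 5.65 and 4.84 in iPS EB against 6.25, 7.03 and 7.00 in ES EB (-1.59 ± 0.21, adjusted p = 3.2e-05, limma). Akr1b8, whose values in both EB groups are given above, was lower in iPS EB by 1.32 (adjusted p = 1.8e-05, limma). Trim25, a ubiquitin ligase of antiviral signalling, read 6.76, 7.75 and 6.95 in iPS EB against 8.14, 8.26 and 8.19 in ES EB. Its difference was -1.04 ± 0.30, adjusted p = 0.015 (limma), and the call was lost without iPS EB replicate 1 (0.078), iPS EB replicate 3 (0.059) or ES EB replicate 2 (0.052). Fibroblast markers averaged 5.41 to 5.91 in iPS EB and 5.79 to 5.88 in ES EB, and endoderm markers (16 probes) 6.00 to 6.92 in iPS EB and 5.52 to 5.87 in ES EB. Endothelial markers (20 probes) averaged 5.03 to 5.15 in iPS EB and 5.25 to 5.34 in ES EB, and blood cell markers 4.46 to 4.83 in iPS EB and 4.88 to 5.55 in ES EB. Their part in these line differences was not tested. The number of members called higher was 16 without ES EB replicate 2, and the number called lower was 10 without iPS EB replicate 1 or 3 and 11 without ES EB replicate 2.

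In iPS cells 11 members were higher and 7 lower than in ES cells, where 9.47% and 10.1% of tested probes were called, so the members' shares (11.8% and 7.53%) were near the background. The median scaling called 3 higher and none lower (limma), where by the same adjusted threshold it called 2.81% of all tested probes higher and 0.793% lower. At an unadjusted p under 0.05, 20 members were higher and 2 lower. The share of all tested probes at that looser threshold was not counted. Rgs16, a regulator of G-protein signalling, read 8.12, 7.17 and 7.11 in iPS cells against 6.38, 6.64 and 6.77 in ES cells (0.87 ± 0.21, adjusted p = 0.0062, limma). Without iPS replicate 1, the array with the highest fibroblast markers of its group, the difference was 0.54 (adjusted p = 0.021). Cdc42ep5 had 8.13, 7.88 and 8.03 in iPS cells against 7.38, 7.14 and 7.01 in ES cells (0.83 ± 0.12, adjusted p = 0.00016, limma). Lrig3 differed by 0.84 ± 0.14, adjusted p = 0.00044 and Rgcc by 0.86 ± 0.28, adjusted p = 0.039 (limma). The Rgcc call was lost without any one iPS replicate or ES replicate 2 (adjusted p from 0.083 to 0.17), and the difference was 0.42 without ES replicate 2. In the other direction, Mgarp had 8.04, 7.77 and 8.00 in iPS cells against 9.39, 8.72 and 8.84 in ES cells (-1.05 ± 0.28, adjusted p = 0.015, limma), with an adjusted p of 0.056 without iPS replicate 2 and 0.068 without ES replicate 1. Tmc6 read 6.26, 6.51 and 6.40 in iPS cells against 7.28, 7.42 and 6.90 in ES cells, and Sdr39u1 6.81, 7.01 and 6.98 against 7.82, 8.05 and 7.93. Tmc6 and Gstt3 were both lower in iPS cells by 0.81 (limma, adjusted p = 0.011 for Tmc6 and 0.0024 for Gstt3), and Sdr39u1 by 1.00 (adjusted p = 0.025), which missed the threshold without any one of 5 of the 6 undifferentiated replicates.

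Both lines were chosen low in CM, and 29 members were detected on no CM array, so the counts within CM are limited by the choice and by background. In iPS CM 4 members were higher and 12 lower than in ES CM, beside 11.4% and 11.8% of tested probes, and the lower share (12.9%) was near that background. Ass1 read 6.16, 6.14 and 5.96 in iPS CM against 5.07, 5.08 and 5.32 in ES CM (0.93 ± 0.18, adjusted p = 0.00095, limma). Slc6a6 and Gcnt2, which branches glycans, were higher in iPS CM by 0.79 (adjusted p = 0.0044) and 0.70 (adjusted p = 0.013, limma), and Gcnt2 missed the threshold without iPS CM replicate 3 (0.056) or ES CM replicate 3 (0.054). Fmnl2 was higher by 0.36 ± 0.12, adjusted p = 0.035 (limma), a call lost without iPS CM replicate 1 or 3 or ES CM replicate 1 or 3, with adjusted p from 0.054 to 0.18. Bcat1 read 4.42, 4.40 and 4.59 in iPS CM, not detected, against 5.82, 6.14 and 5.96 in ES CM, detected on all 3 (-1.51 ± 0.29, adjusted p = 0.0011, limma). Ifitm1, with values given above, was lower in iPS CM by 1.37 (adjusted p = 2e-06, limma). Its 2 other tested probes read near background in CM of both lines. Means were 4.15 in iPS CM and 4.18 in ES CM on ILMN_1214071, and 4.12 and 4.14 on ILMN_2814484. The line difference thus rests on 1 probe. Mt1, a metallothionein, read 9.16, 9.55 and 9.47 in iPS CM against 10.52, 10.76 and 10.79 in ES CM (-1.30 ± 0.24, adjusted p = 0.00082, limma). Tpst1, which sulfates tyrosines, read 6.16, 6.00 and 6.35 in iPS CM against 7.12, 7.26 and 7.40 in ES CM (-1.09 ± 0.12, adjusted p = 4.9e-06, limma). Without ES CM replicate 3 the counts were 2 higher and 7 lower, and without iPS CM replicate 3 there were 2 higher.

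The step from undifferentiated cells to EB was set side by side in both lines by testing the iPS line's change minus the ES line's. It was called for 13 members, 7 higher and 6 lower, beside 3.12% and 3.73% of tested probes. Ly6e had 7.84, 8.03 and 7.59 in iPS EB against 8.06, 7.94 and 7.91 in iPS cells, and 7.10, 6.04 and 6.26 in ES EB against 8.22, 8.04 and 7.91 in ES cells. Its change was -0.15 in the iPS line and -1.59 in the ES line, a difference of 1.44 ± 0.28, adjusted p = 0.0046 (limma). Ddit4 changed by -0.21 in the iPS line and -1.56 in the ES line (1.35 ± 0.27, adjusted p = 0.0053, limma). Akr1b8, Rgcc and Rgs16 fell more in the iPS line, with differences of -1.26, -1.52 and -1.29 (limma, adjusted p = 0.0032, 0.028 and 0.012). Rgcc and Rgs16 started higher in iPS than in ES cells, with means of 7.93 against 7.06 and 7.47 against 6.60. Their EB levels were not called different between the lines (limma, adjusted p = 0.1 and 0.15), and Rgcc was near background in iPS EB. Scd1 read 8.27, 8.12 and 8.06 in iPS EB against 7.90, 7.71 and 7.83 in iPS cells, and 8.23, 7.01 and 6.73 in ES EB against 8.53, 8.21 and 8.29 in ES cells, with ES EB replicate 1 apart from the other 2 (1.35 ± 0.39, adjusted p = 0.047, limma). The remaining calls were positive for Hvcn1 (0.72), Nme7 (0.78), Sfxn1 on ILMN_2675569 (0.79) and ILMN_2482571 (0.83), and negative for both Tns3 probes (-0.79 and -1.36) and Mfsd10 (-1.04). Samples of a line with the same number share a passage by the labels. Compared as 3 such differences per line, 2 members were called higher (Ddit4 and Ly6e, adjusted p = 0.03 and 0.042) and 1 lower (Akr1b8, 0.046, limma), and the other 10 had adjusted p from 0.055 to 0.14. The counts also depended on single arrays. They were 13 higher and 12 lower without ES EB replicate 1, and 3 higher and 3 lower without any one of ES EB replicates 2 and 3 and iPS replicates 1 and 2. Without iPS EB replicate 1 they were 4 and 2, without iPS EB replicate 2 they were 4 and 11, and without iPS EB replicate 3 there were 3 lower. With arrays scaled to a common median limma called no member, beside 0.385% of all tested probes called higher and 0.831% lower. At an unadjusted p under 0.05, 4 members were higher and 8 lower, and the share of all tested probes at that looser threshold was not counted.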

How the data were processed

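Gene expression was measured as total RNA in 21 samples, 1 array each. The non-normalized table deposited by the authors holds 1 intensity (the average signal) and 1 detection p-value per array for every probe, per the file headers. Software and version behind it are not given in the sources used here. The normalized intensity deposited by the authors carries the same values, quantile normalized (largest distance 6.87e-10 on the log2 scale), but under other identifiers, as 3 of 45281 value sets share one. The identifiers of the non-normalized table were used, since under them Pou5f1 reads high in stem cells, Myh6 in CM and Col1a1 in fibroblasts. Genes come from the platform annotation, with symbols updated by gene identifier, and 34885 probes have 1 symbol, 18 several and 10378 none.

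Tests used R 4.3.3 and limma 3.58.1. With neqc, background was removed by normexp, taking negative controls as implied by the detection p-values, an offset of 16 was added, and quantile-normalized values were put on the log2 scale, so differences of dim probes are understated. Probes detected (p under 0.01) on at least 3 arrays were tested, with lmFit and eBayes on 19 samples in 1 model with a mean per group (12 residual degrees of freedom) and Benjamini-Hochberg adjustment over 21047 probes. The fit was tested on simulated data. Members, lists and rules were chosen with earlier results of these data known. Named were the 12 members of largest margin, the 4 on either side of the threshold, and by size of change among called members without overlap up to 8 (EB against undifferentiated cells), 6 (EB of the lines) and 4 (other line comparisons) in each direction, and examples from the gene lists. Other members named were chosen after their values were seen. Alternatives covered background correction, scaling, the authors' table, the filter, the rule, the samples fitted, a block and each replicate left out.

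Same-numbered samples of a line share a passage per the labels, so a fit paired within each line was added after the data were seen.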

Additional observations from a re-analysis of the deposited data

Results flagged for a closer look

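The step from undifferentiated cells to EB differed between the iPS and the ES line in 13 members by a test of the difference itself (limma, iPS line minus ES line). Of these, 7 were higher and 6 lower, beside 3.12% and 3.73% of all tested probes. With arrays scaled to a common median no member was called. Leaving out 1 replicate in turn gave 3 to 13 higher and 2 to 12 lower. Among members named for other comparisons, the difference was -1.52 for Rgcc (adjusted p = 0.028), -1.26 for Akr1b8 (0.0032), -1.29 for Rgs16 (0.012), -1.36 for Tns3 on ILMN_2491469 (0.022) and -0.79 for Tns3 on ILMN_1247133 (0.04). It was 1.44 for Ly6e (adjusted p = 0.0046), 1.35 for Ddit4 (0.0053) and 0.83 for ILMN_2482571 (0.0093). The 2 Tns3 probes read the same gene. With samples of one line and passage taken as pairs, Ddit4, Ly6e and Akr1b8 kept an adjusted p under 0.05.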

How the results depend on the processing

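Scaling arrays to a common median moved the most counts of members (higher and lower): 12 and 5 for iPS EB against ES EB, 7 and 10 for ES EB against ES cells, 16 lower for iPS EB against iPS cells, 3 and 0 for iPS against ES cells, 1 and 5 for iPS CM against ES CM, and 0 and 0 for the difference of change. In this order, that scaling called 6.5% and 3.77%, 19.3% and 1.46%, and 22.3% and 3.17% of all tested probes higher and lower. For iPS against ES cells, iPS CM against ES CM and the difference of change it called 2.81% and 0.793%, 4.68% and 3.44%, and 0.385% and 0.831%. Shares of all tested probes under the other settings are not given here. Choosing members under that scaling gave 73, of which 44 were among the 93, and the median EB position became 94.5% (iPS) and 93.1% (ES). A threshold of 3 left 17 members, with EB positions of 89.6% (iPS) and 91.5% (ES). Without the filter on dim probes, the EB of the lines differed in 10 members that were lower in iPS EB, and the difference of change was called for 4 and 2. With only the compared groups fitted, these numbers were 7 lower and 3 and 1. With the replicate number as a block in that fit, iPS EB against ES EB gave 12 higher and 6 lower, 5 were higher in iPS than in ES cells, and 3 and 3 were called for the difference of change. Within a line the same number marks 1 passage, and EB and CM came from the same batches by the labels. Deviations from group means nevertheless correlated weakly in such pairs, at -0.12 to 0.11 (CM and EB), -0.01 to 0.22 (CM and undifferentiated cells) and -0.18 to 0.11 (EB and undifferentiated cells). Paired within each line, a setting added after the data were seen, the difference of change had 2 and 1 calls, and the block left 50 lower in iPS EB and 49 in ES EB than in undifferentiated cells. Between the lines the numbers mark different passages, and correlations lay between -0.16 and 0.23. Fits of the compared groups alone hold fewer samples, and the causes of the other moves were not tested.

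Leaving out 1 replicate in turn, the counts ranged from 16 to 27 higher and 10 to 23 lower for iPS EB against ES EB, 3 to 6 and 46 to 55 for ES EB against ES cells, and 5 to 7 and 44 to 53 for iPS EB against iPS cells. They ranged from 8 to 12 and 5 to 7 for iPS against ES cells, 2 to 5 and 7 to 11 for iPS CM against ES CM, and 3 to 13 and 2 to 12 for the difference of change. The position ranged from 81.0 to 84.7% (iPS) and 78.4 to 80.4% (ES), and the number of members from 89 to 98. Against 26 and 18 calls, iPS EB against ES EB had 16 and 11 without ES EB replicate 2, and 10 lower without iPS EB replicate 1 or 3. Higher calls of iPS CM against ES CM were 2, beside 4, without replicate 3 of either CM, and lower calls 7, beside 12, without ES CM replicate 3. The difference of change had 13 and 12 calls, beside 7 and 6, without ES EB replicate 1, 4 and 11 without iPS EB replicate 2, 4 and 2 without iPS EB replicate 1, 3 lower without iPS EB replicate 3, and 3 and 3 without ES EB replicate 2, ES EB replicate 3, iPS replicate 1 or iPS replicate 2. No difference of a named member changed sign under the alternatives run, but under the median scaling the members' median was 0.18, beside -0.05, for iPS EB minus ES EB, and -0.02, beside 0.07, for the difference of change. Of 50 results on named members, 33 kept their call under every alternative, and 48 of 600 single alternatives lost it, 15 of them under the median scaling. Members near background in CM have only bounds there.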

Other observations

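Further members had EB means above those of undifferentiated cells, or uneven arrays within a group. Adam23, a membrane protein that binds integrins, read 8.10, 8.63 and 7.73 in iPS EB and 7.71, 8.35 and 8.49 in ES EB, against 7.89, 7.70 and 7.75 in iPS cells and 7.81, 7.57 and 7.88 in ES cells. Sulf1, which removes sulfate groups from heparan sulfate, read 9.24, 8.67 and 9.21 in iPS EB and 8.46, 7.47 and 7.99 in ES EB, against 7.97, 7.78 and 7.69 in iPS cells and 7.27, 7.92 and 7.44 in ES cells. Their EB positions were 113% (Adam23) and 145% (Sulf1) in the iPS line, and 115% and 117% in the ES line. Both were low in CM, with Adam23 at 4.81, 4.94 and 4.97 in iPS CM and 4.96, 4.76 and 5.17 in ES CM.

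Crabp1, which binds retinoic acid in the cytoplasm, was not detected in CM. Single arrays stood apart for it, with 5.34, 5.56 and 5.44 in iPS EB, 8.32, 5.76 and 5.77 in ES EB, 8.15, 6.79 and 6.83 in iPS cells and 6.76, 6.74 and 6.93 in ES cells. The high values were those of ES EB replicate 1 and iPS replicate 1. Mt1 read 11.91, 12.09 and 10.96 in iPS EB and 12.17, 11.60 and 11.60 in ES EB, against 12.25, 12.68 and 12.77 in iPS cells and 13.35, 13.04 and 13.32 in ES cells, and its EB positions were 71.3% in the iPS line and 43.2% in the ES line. Klf6, a Krüppel-like transcription factor, had EB positions of 73.1% in the iPS line and 45.9% in the ES line. Whether the positions differ between the lines was not tested.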
